A study of Mus musculus with 10 samples.

Results

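The keratins of simple, single-layered epithelia were examined in portal tracts of 1-week-old mice, the regions of the liver that hold a bile duct beside branches of the portal vein and hepatic artery. The 6 genes Krt7, Krt8, Krt18, Krt19, Krt20 and Krt23 were chosen by name, with earlier results of these data known. All 6 were measured, among 22180 genes tested. Each was read from its probe set with a single gene symbol, or from the brightest over all arrays where a gene has several. The values are log2 expression on 10 single-colour arrays, 5 of control tracts and 5 of Jag1+/-Rfng+/- tracts. Jag1+/-Rfng+/- animals are heterozygous at Jag1, which encodes a Notch ligand, and at Rfng, which encodes the glycosyltransferase Radical fringe that modifies Notch receptors. The controls are of strain C57Bl/6J, and no strain is named for the Jag1+/-Rfng+/- samples. No treatment is named for either group, and the sources used here give neither the kind of mutant allele nor the full genotype of the controls. Each replicate pools RNA of 12 to 20 tracts cut from frozen sections by laser capture. No label says that replicates came from separate mice, so p-values measure only the spread between these samples, which may be technical. In such bulk samples fewer cells of a type and less RNA per cell cannot be told apart.

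Keratins build the intermediate filaments of epithelial cells, and each filament needs a type I and a type II partner. Krt8 (type II) and Krt18 (type I) form the filaments of hepatocytes. Bile duct cells add Krt7 (type II) and Krt19 (type I), which therefore serve as duct markers in liver. Krt20 is a type I keratin best known from intestine, stomach and bladder lining, and Krt23 is a type I keratin described as stress-inducible in reacting bile ductules.

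In the RefSeq table for GRCm38.p6 the genes lie in the keratin clusters of chromosomes 11 and 15. Krt20 (chr11:99428385-99438153), Krt23 (chr11:99477973-99493120) and Krt19 (chr11:100140810-100145926) share the type I cluster, and Krt7 (chr15:101412403-101427806) and Krt8 (chr15:101996711-102004342) the type II cluster. Krt18 (chr15:102028216-102032026), a type I gene, lies beside Krt8. These are whole-gene spans from RefSeq, since the sources used here name no build for the array annotation. Promoters of 5 of the 6 genes were matched by symbol in the RefSeq promoter table of that build, and Krt19 was not among them. The 250 bases upstream of the start are shown for Krt7 and Krt23, whose expression differed in opposite directions, and for Krt8, which differed least. Krt7 was read on the plus strand at chr15:101412153-101412402, Krt23 on the minus strand at chr11:99493121-99493370 and Krt8 on the minus strand at chr15:102004343-102004592. Capitals mark GC boxes (GGGCGG), the core of sites for RBPJ, the DNA-binding factor of Notch signalling (TGGGAA), the ETS factor core (GGAAGT) and TATA boxes (TATAAA), on either strand:
Krt7: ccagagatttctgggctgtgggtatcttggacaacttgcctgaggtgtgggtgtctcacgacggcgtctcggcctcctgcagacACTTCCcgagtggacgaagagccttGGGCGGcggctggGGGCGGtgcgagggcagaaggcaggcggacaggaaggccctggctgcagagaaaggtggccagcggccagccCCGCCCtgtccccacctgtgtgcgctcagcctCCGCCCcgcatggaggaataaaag
Krt23: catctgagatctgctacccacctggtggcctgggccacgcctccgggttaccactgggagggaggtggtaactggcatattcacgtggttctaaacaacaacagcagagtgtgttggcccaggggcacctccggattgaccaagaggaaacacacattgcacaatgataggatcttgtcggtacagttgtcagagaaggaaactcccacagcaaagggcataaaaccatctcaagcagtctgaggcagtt
Krt8: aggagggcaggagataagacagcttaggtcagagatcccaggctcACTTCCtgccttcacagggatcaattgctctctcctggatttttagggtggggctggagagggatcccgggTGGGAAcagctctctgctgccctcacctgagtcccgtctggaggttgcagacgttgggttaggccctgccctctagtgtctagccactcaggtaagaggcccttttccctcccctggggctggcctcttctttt
Krt7 has 4 GC boxes and 1 ETS core, Krt8 has 1 RBPJ core and 1 ETS core, and Krt23 has none of these motifs in the window. None of the marked motifs overlap in these windows. Among all 32851 promoter windows of the same length, 32.7% hold a GC box, 19.7% an ETS core, 21.6% an RBPJ core and 12.4% a TATA box. The Krt7 window is 66% G and C, the Krt8 window 58% and the Krt23 window 52.8%. A match describes these letters only.

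Arrays have no read depth, so their number limits the precision, and the median of an array was 3.22 to 3.30 (log2). Correlations across probe sets between pairs of arrays ran from 0.956 to 0.987. Jag1+/-Rfng+/- replicate 5, whose sample name has a suffix of unstated meaning, correlated at most 0.963 with any other array. Readings of 1.82 to 2.91 came from genes that should be silent. These were Xist on the arrays where it was low and Y-linked genes on the arrays where Xist was high. This range rests on few genes, and other silent genes may read higher. A shared number in the sample names, a possible batch, links 7 arrays (3 control and 4 Jag1+/-Rfng+/-), and the other 3 arrays have a number each. Of the targeted genes, Jag1 had a mean of 5.72 ± 0.93 in controls against 4.39 ± 0.63 in Jag1+/-Rfng+/- arrays (SD, n = 5 each), with overlapping groups (exact permutation p = 0.0556, two-sided). Rfng had means of 4.82 ± 0.20 against 4.36 ± 0.16 (SD, n = 5 each), with groups apart (exact permutation p = 0.00794, two-sided). Each probe may lie outside the altered part of its gene, so these readings are no firm check of the labels.

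The duct keratins Krt7 and Krt19 read lower on average in Jag1+/-Rfng+/- tracts and Krt23 read higher, each at an unadjusted limma p under 0.05. Krt8, Krt18 and Krt20 did not reach that level. For all 6 genes the readings of the groups overlapped. Of the 6 keratins 0 passed an adjusted p of 0.05 in limma (Benjamini-Hochberg over all genes), a threshold that 0.00902% of all genes passed. At an unadjusted p under 0.05, 3 of the 6 were past the threshold, 2 lower and 1 higher. Over all genes tested 6.76% were, 3.79% lower and 2.98% higher. The 6 genes were chosen with earlier results of these data known, so their count is a description and no test of the set. Without a threshold 4 of the 6 read lower, beside 51.5% of all genes. In 0 of the 6 genes did the groups lie fully apart, as they did in 1.38% of all genes. The median difference of the 6 keratins was -0.45 log2, beside -0.01 over all genes.

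**Figure D1:**
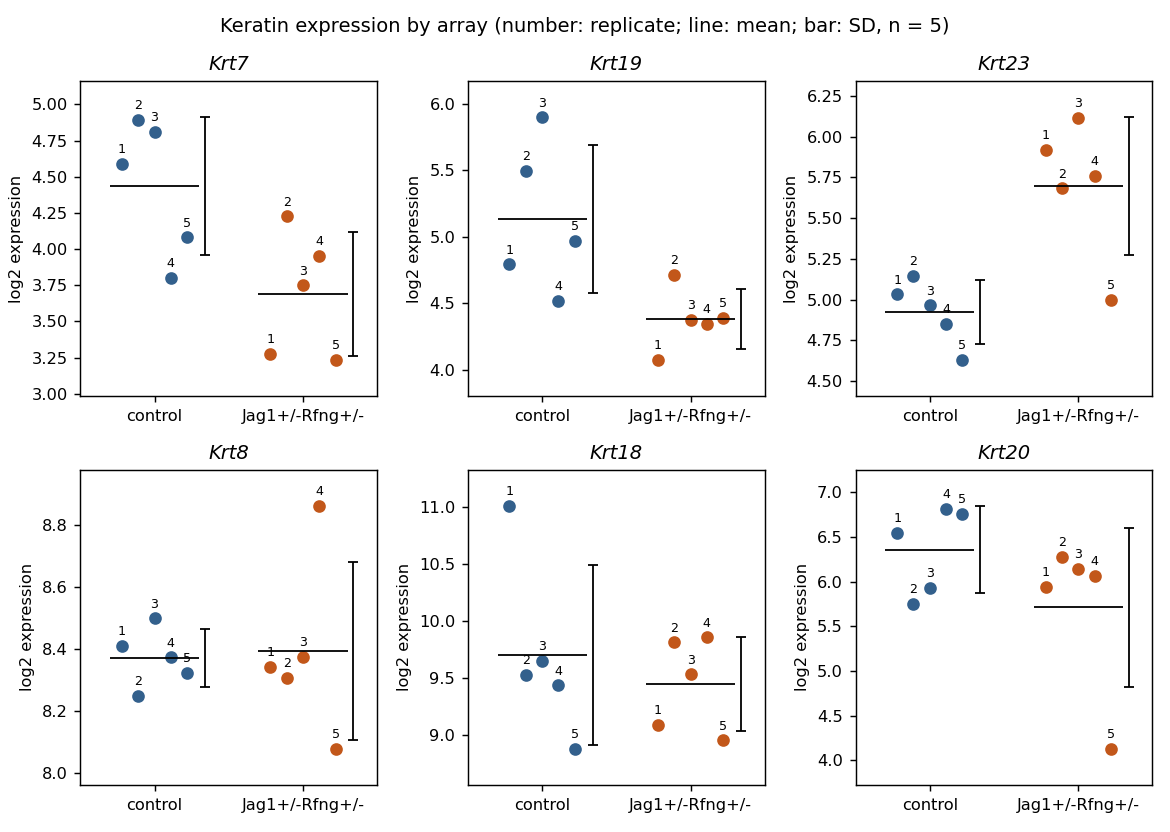
Log2 expression of the 6 keratin genes (y axis, a separate scale in each panel) on the 5 control and 5 Jag1+/-Rfng+/- arrays. Points are arrays with their replicate number, lines are group means and bars are SD. Jag1+/-Rfng+/- arrays are mostly below the controls for Krt7 and Krt19 and above them for Krt23, with Krt20 at 4.13 on Jag1+/-Rfng+/- replicate 5.

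Krt19, the type I keratin of duct cells, read 4.79, 5.49, 5.90, 4.52 and 4.97 on control arrays 1 to 5. On Jag1+/-Rfng+/- arrays 1 to 5 it read 4.07, 4.71, 4.38, 4.34 and 4.39. Of the 5 Jag1+/-Rfng+/- arrays 4 lay below the lowest control, and replicate 2 lay between control 4 and control 1. The group means were 5.13 ± 0.56 and 4.38 ± 0.23 (SD, n = 5 each), a difference of -0.75 ± 0.23 log2 (SE), 1.69-fold lower (95% interval -1.26 to -0.25, limma adjusted p = 0.537). Controls ranged over 1.38 log2 and Jag1+/-Rfng+/- arrays over 0.64, so the control arrays carried more of the spread.

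Krt7, the type II keratin that accompanies Krt19 in ducts, read 4.59, 4.90, 4.81, 3.80 and 4.08 on control arrays 1 to 5. Its Jag1+/-Rfng+/- readings were 3.28, 4.23, 3.75, 3.95 and 3.23. Here 3 Jag1+/-Rfng+/- arrays lay below every control, and 3 controls lay above every Jag1+/-Rfng+/- array. The means of 4.44 ± 0.48 and 3.69 ± 0.43 (SD, n = 5 each) differed by -0.75 ± 0.25 log2 (SE), 1.68-fold lower (95% interval -1.29 to -0.21, limma adjusted p = 0.597). On Jag1+/-Rfng+/- replicates 1 and 5 Krt7 was close to the readings of silent genes, which reach 2.91, so the size of its difference is uncertain there.

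Both duct keratins were high on controls 2 and 3 and low on control 4, and all 5 Jag1+/-Rfng+/- arrays lay below the control mean for both. Relative to the control mean, the average of Krt7 and Krt19 was 0.41 and 0.57 on controls 2 and 3 and -0.63 on control 4. It was -1.11, -0.31, -0.72, -0.64 and -0.97 on Jag1+/-Rfng+/- arrays 1 to 5. Within the groups, deviations of Krt7 and Krt19 from their group means correlated with Pearson r = 0.74 over the 10 arrays (exact within-group permutation p = 0.0256, two-sided, adjusted p = 0.384 over the 15 keratin pairs). Spearman's rho was 0.67 (exact within-group permutation p = 0.0474, adjusted p = 0.615), and r was 0.71 without the 2 arrays farthest from the median of Krt7. None of the 15 pairs passed after adjustment by either measure. The remaining pairs had r from -0.36 (Krt19 with Krt20) to 0.56 (Krt20 with Krt23).

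Krt23, the stress-inducible keratin, read 5.03, 5.15, 4.96, 4.85 and 4.63 on control arrays 1 to 5. On Jag1+/-Rfng+/- arrays 1 to 5 it read 5.92, 5.68, 6.11, 5.76 and 5.00. Jag1+/-Rfng+/- arrays 1 to 4 lay above every control, and replicate 5 lay within the control range, above 3 of its 5 arrays. The means of 4.92 ± 0.20 and 5.69 ± 0.42 (SD, n = 5 each) differed by 0.77 ± 0.19 log2 (SE), 1.71-fold higher (95% interval 0.36 to 1.18, limma adjusted p = 0.337). This was the lowest adjusted p among the 6 keratins. Without Jag1+/-Rfng+/- replicate 5 the difference was 0.94 log2 (limma adjusted p = 0.112).

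Krt8, the type II keratin of hepatocytes and duct cells alike, read 8.41, 8.25, 8.50, 8.37 and 8.32 on control arrays 1 to 5. The Jag1+/-Rfng+/- arrays read 8.34, 8.31, 8.37, 8.86 and 8.08. Replicates 4 and 5 lay above and below all controls, and the other 3 lay inside the control range. The means of 8.37 ± 0.09 and 8.39 ± 0.29 (SD, n = 5 each) differed by 0.02 ± 0.13 log2 (SE), with a 95% interval of -0.27 to 0.31 (limma adjusted p = 0.986). The interval leaves out differences as large as those of Krt7, Krt19 and Krt23. The direction of Krt8 turned without Jag1+/-Rfng+/- replicate 4 (-0.095), without control replicate 2 (-0.0080) and with the hepatocyte list as a covariate (-0.027).

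Krt18, the type I partner of Krt8, has 2 probe sets on the array that gave different directions. The brighter one (17322125), which the rule takes, read 11.01, 9.53, 9.65, 9.44 and 8.88 on control arrays 1 to 5 and 9.09, 9.81, 9.53, 9.86 and 8.95 on Jag1+/-Rfng+/- arrays 1 to 5. Control 1 stood 1.31 log2 above the control mean, and the other control and Jag1+/-Rfng+/- arrays overlapped. Its means of 9.70 ± 0.79 and 9.45 ± 0.41 (SD, n = 5 each) differed by -0.25 ± 0.34 log2 (SE), with a 95% interval of -0.98 to 0.48 (limma adjusted p = 0.908). Without control replicate 1 the difference turned to 0.07. The other probe set (17315245) read 8.97 to 9.58 in controls and 8.81 to 9.65 in Jag1+/-Rfng+/- and differed by 0.04 ± 0.18 log2 (SE, limma adjusted p = 0.978). The RefSeq promoter table places Krt18 on the plus strand. Of 30 strand-known genes of the 50 probe sets nearest in number to 17322125, 29 lie on the minus strand, and of 25 such genes around 17315245, 25 lie on the plus strand. Over the 10 arrays the probe sets varied alike, with a Pearson r of 0.78, and 0.87 without control 1, given as a description. Whether the brighter probe set reads Krt18 itself was not tested.

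Krt20 read 6.54, 5.75, 5.93, 6.81 and 6.76 on control arrays 1 to 5. On Jag1+/-Rfng+/- arrays it read 5.94, 6.27, 6.15, 6.06 and 4.13. Without the last array, replicate 5, the Jag1+/-Rfng+/- readings lie inside the control range. The means of 6.36 ± 0.49 and 5.71 ± 0.89 (SD, n = 5 each) differed by -0.65 ± 0.38 log2 (SE), with a 95% interval of -1.48 to 0.18 (limma adjusted p = 0.790). Without Jag1+/-Rfng+/- replicate 5 the difference was -0.25 log2, and among the shared-number arrays without it, -0.0038. On that array the erythroid list stood 2.72 log2 above the control mean and the portal fibroblast list 1.41 below, and their part in the Krt20 reading was not tested. Of the 8 intestinal markers 5 averaged within the readings of silent genes in both groups, the intestinal transcription factors Cdx1 and Cdx2 among them. Of the others, Fabp2, a fatty acid binding protein, averaged 8.85 in controls and 8.29 in Jag1+/-Rfng+/-, and Lgals4, a galectin, 6.04 and 6.74 (log2). Fabp2 read 6.65 on Jag1+/-Rfng+/- replicate 5, where Krt20 was low, and its part in the Krt20 reading was not tested. Krt20 was high on controls 1, 4 and 5 and low on controls 2 and 3, where Krt7 and Krt19 were high.

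**Figure D2:**
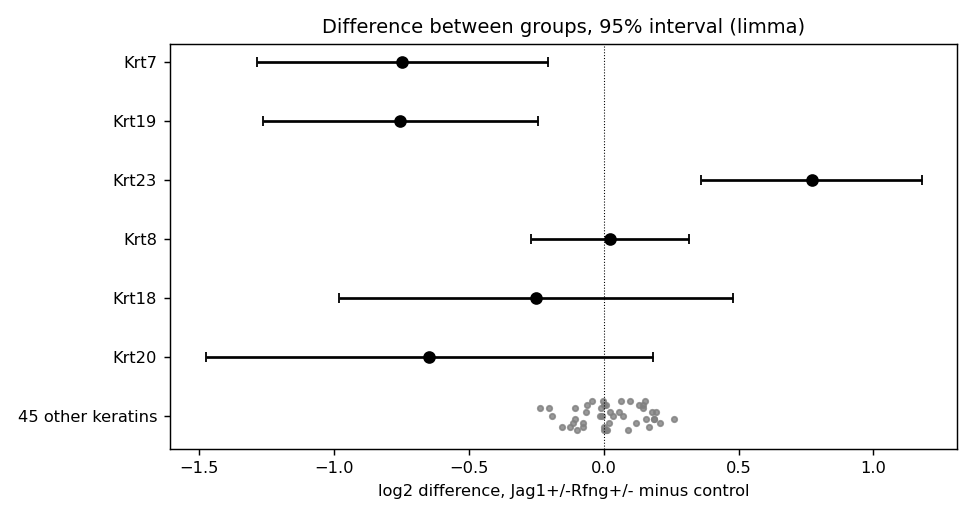
Log2 difference between Jag1+/-Rfng+/- and control tracts (x axis) for each of the 6 keratins with its 95% interval from limma, and for 45 other keratin genes as single points. The intervals of Krt7 and Krt19 lie below 0, that of Krt23 above 0 and those of Krt8, Krt18 and Krt20 cross it, while the other keratins lie between -0.24 and 0.26.

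Set side by side, Krt7 and Krt19 differed by -0.75 log2 each, Krt8 by 0.02, Krt18 by -0.25 and Krt23 by 0.77. The interval of Krt23 shares no value with those of Krt7 and Krt19, and the interval of Krt18 overlaps all of them. The difference between these genes' changes was not tested, since the genes were grouped with earlier results known. Within the 7 arrays of the shared name number Krt7 differed by -0.71, Krt19 by -0.85 and Krt23 by 0.65 log2 (limma adjusted p = 0.878, 0.826 and 0.848). Without Jag1+/-Rfng+/- replicate 5 those arrays gave -0.53, -0.83 and 0.87 (limma adjusted p = 0.923, 0.898 and 0.534).

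Other markers of duct cells and of portal fibroblasts read lower on many of the same arrays. The list of biliary genes other than keratins had 12 of 17 measured members lower and a median difference of -0.32 log2. Its mean level ran from 5.69 to 6.49 log2 in controls and from 5.27 to 5.82 in Jag1+/-Rfng+/-. Over all genes 51.5% read lower, with a median difference of -0.01 log2. At an unadjusted limma p under 0.05 stood 7 lower and 2 higher biliary members, where 3.79% and 2.98% of all genes did. This and the other gene lists were chosen with earlier results of these data known, so their counts are descriptions. Of the biliary members 0 passed the adjusted threshold. Epcam, an adhesion molecule of duct cells, differed by -0.76 log2, Sox9, a duct transcription factor, by -0.93, and Muc1, a membrane mucin, by -2.08 (limma adjusted p = 0.618, 0.693 and 0.0745). In the other direction Cldn7, a tight junction protein, differed by 0.80 log2 (limma adjusted p = 0.383). Cd24a, Slc4a2 and Aqp1 differed by 0.03, 0.12 and 0.15. The portal fibroblast list had 16 of 19 members lower and a median difference of -0.78 log2. At an unadjusted limma p under 0.05 it had 9 lower and 0 higher members, and 0 passed the adjusted threshold. Its mean level was 5.91 to 7.03 log2 in controls and 5.19 to 6.63 in Jag1+/-Rfng+/-. The hepatocyte list, which covers cells rich in Krt8 and Krt18, had 12 of 18 members lower but a median difference of only -0.03 log2. Its mean level was 9.56 to 9.93 log2 in controls and 9.58 to 9.86 in Jag1+/-Rfng+/-. Mesothelial cells also carry simple keratins. Of that list's 8 members 5 averaged within the readings of silent genes in both groups, Upk3b among them. The others, Msln, Wt1 and Gpm6a, averaged 3.35, 3.45 and 3.85 in controls and 2.97, 3.75 and 3.76 in Jag1+/-Rfng+/- (log2). The mean of the mesothelial list was 2.60 to 2.89 in controls and 2.61 to 2.93 in Jag1+/-Rfng+/-.

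**Figure D3:**
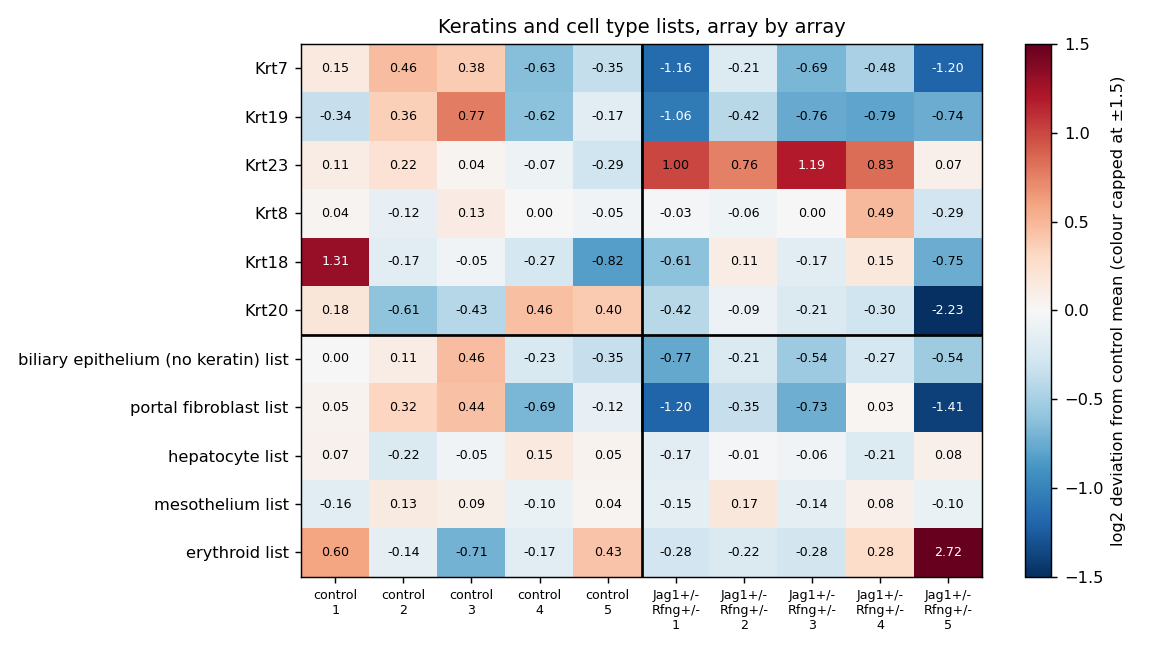
Deviation from the control mean in log2 units (colour and printed value) of the 6 keratins and of the mean of 5 cell type lists (rows), on each array (columns). Krt7 and the portal fibroblast list are both lowest on Jag1+/-Rfng+/- replicates 1 and 5, while Krt23 is above the control mean on all 5 Jag1+/-Rfng+/- arrays.

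The portal fibroblast list stood 0.32 and 0.44 log2 above the control mean on controls 2 and 3, where Krt7 and Krt19 were high. It stood 1.20 and 1.41 below it on Jag1+/-Rfng+/- replicates 1 and 5, where Krt7 was lowest. On Jag1+/-Rfng+/- replicate 4 that list stood at 0.03, with Krt7 at -0.48 and Krt19 at -0.79. With the list's mean as a covariate Krt7 differed by -0.18 ± 0.17, Krt19 by -0.38 ± 0.25 and Krt23 by 0.97 ± 0.23 log2 (SE, limma adjusted p = 0.859, 0.784 and 0.463). With the mean of the hepatocyte list as a covariate the differences were -0.89, -0.85 and 0.66 (limma adjusted p = 0.326, 0.349 and 0.326).

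The rest of the keratin family, which serves skin, hair and other layered epithelia, read low in portal tracts of both groups. Of 47 listed genes 45 were measured, 24 of type I and 21 of type II, and 32 averaged within the readings of silent genes in both groups. In limma 0 of the 45 passed the adjusted threshold and 0 had an unadjusted p under 0.05, where 6.76% of all genes did. Of the 45 genes 18 were lower and 27 higher, with a median difference of 0.01 log2. Their differences ran from -0.24 to 0.26 log2. Among type I genes the lowest unadjusted p values belonged to Krt13, Krt16, Krt32 and Krt222, with differences of 0.18, 0.21, 0.19 and 0.19. Among type II genes they belonged to Krt83, Krt2, Krt76 and Krt78, with differences of 0.26, 0.17, -0.15 and 0.15. Krt14 and Krt1, markers of skin, averaged 2.41 and 2.94 in controls and 2.48 and 3.06 in Jag1+/-Rfng+/- (log2). Krt10, a skin keratin named after its values were seen, averaged 4.57 in controls and 4.58 in Jag1+/-Rfng+/-.

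**Figure D4:**
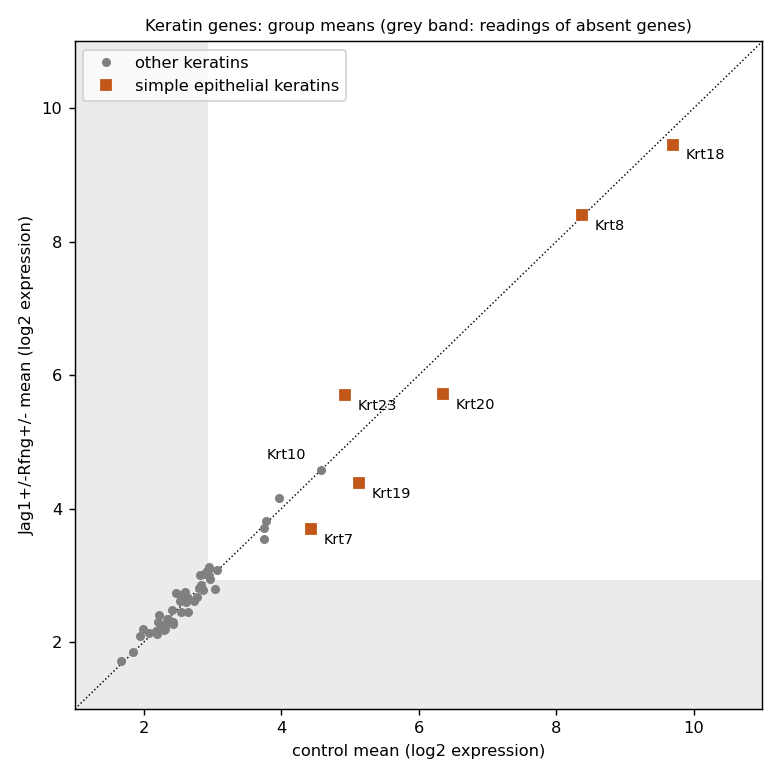
Mean log2 expression in controls (x axis) and in Jag1+/-Rfng+/- (y axis) of the 6 simple epithelial keratins (squares) and 45 other keratins (circles), with equality as a dotted line. The grey bands cover readings up to 2.91, the highest from Xist or a Y-linked gene where it should be silent. There 32 of the 45 other keratins have both means.

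Genes that anchor keratin filaments had differences between -0.50 and 0.31 log2. Of 24 listed desmosome and linker genes 23 were measured, 12 lower and 11 higher, with a median difference of -0.01 log2 beside -0.01 over all genes. In limma 0 passed the adjusted threshold and 1 of the 23 had an unadjusted p under 0.05, where 6.76% of all genes did. That gene was Itga6, the integrin subunit that ties epithelial cells to laminin, at -0.50 ± 0.14 log2 (SE, limma adjusted p = 0.441). Itga6 read 5.94, 5.70, 5.84, 5.37 and 5.54 on control arrays 1 to 5 and 5.12, 5.31, 4.96, 5.46 and 5.06 on Jag1+/-Rfng+/- arrays 1 to 5. Its lowest readings were all in Jag1+/-Rfng+/-, and replicate 4 reached into the control range. Fbf1, a keratin-binding protein of junctions, differed by 0.27, Pof1b by -0.17 and Dst, a linker of filaments to the cell base, by 0.18 log2. Of 16 other intermediate filament genes 15 were measured, and 0 passed the adjusted threshold or an unadjusted p of 0.05 in limma. Synm, Gfap, Lmnb2 and Lmna differed by -0.26, 0.29, -0.20 and 0.31 log2.

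Transcription factors known for simple epithelial keratins differed in both directions. Of 22 listed genes 21 were measured, 11 lower and 10 higher, with a median difference of -0.08 log2. In limma 0 passed the adjusted threshold. An unadjusted p under 0.05 was reached by 4 lower and 1 higher gene, where 3.79% and 2.98% of all genes reached it. Among these genes Ehf, Onecut1 and Elf3 also belong to the biliary list and were counted there too. Ehf, an epithelial ETS factor, read 4.80, 5.16, 5.60, 4.22 and 3.64 on control arrays 1 to 5 and 3.07, 3.17, 2.62, 2.75 and 2.50 on Jag1+/-Rfng+/- arrays 1 to 5. Its groups did not overlap, and the last 3 Jag1+/-Rfng+/- readings lie within those of silent genes. Ehf differed by -1.86 ± 0.31 log2 (SE, limma adjusted p = 0.108), and this fold is not bounded. Klf5, a Krüppel-like factor of epithelia, differed by -0.71 ± 0.17 log2 (limma adjusted p = 0.332), from 5.45 ± 0.33 in controls to 4.74 ± 0.26 (SD, n = 5 each). Onecut1, the hepatobiliary factor HNF6, differed by -0.48 ± 0.16 log2 with groups apart (limma adjusted p = 0.572). Elf3, a further ETS factor, read higher by 0.40 ± 0.16 log2 (limma adjusted p = 0.660), from a control mean of 2.89 within the readings of silent genes.

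The genes closest to each keratin were found by the Pearson r of deviations from group means over the 10 arrays, among 10381 other genes above the median level. They were picked as the highest of many, so r is a description with no p. For Krt7 these were Mlf2, Ckb and Sema5a, with r of 0.98, 0.97 and 0.97, and for Krt19 Ptpn13, Golm1 and Hcfc1, with 0.97, 0.96 and 0.94. Sema5a, a semaphorin, differed by -1.33 log2 between groups (limma adjusted p = 0.537), and Ptpn13, a phosphatase, by -0.31 (limma adjusted p = 0.875). For Krt23 they were Pxylp1, Ccdc142 and Cxcl9, each with r of 0.97 (Spearman's rho 0.95, 0.94 and 0.95). Over the values themselves, group difference included, r was 0.21, 0.83 and -0.11. Within Jag1+/-Rfng+/- each of these genes read lowest on replicate 5, as did Krt23. Cxcl9, a chemokine, differed by -1.88 log2 (limma adjusted p = 0.546), opposite to Krt23, while Pxylp1 and Ccdc142 differed by -0.14 and 0.15. For Krt8 the closest were Ackr3, Camk1g and Map1b (0.97, 0.95 and 0.94), for Krt18 Ppcdc, Taz and Acly (0.95, 0.93 and 0.93) and for Krt20 Mgst1, Hacd2 and Hars2 (0.98, 0.97 and 0.96). No keratin stood among the closest genes of another. Mgst1, a membrane glutathione transferase, read 7.47 on Jag1+/-Rfng+/- replicate 5 and 7.93 to 8.36 on the other 9 arrays, low on the same array as Krt20.

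**Figure D5:**
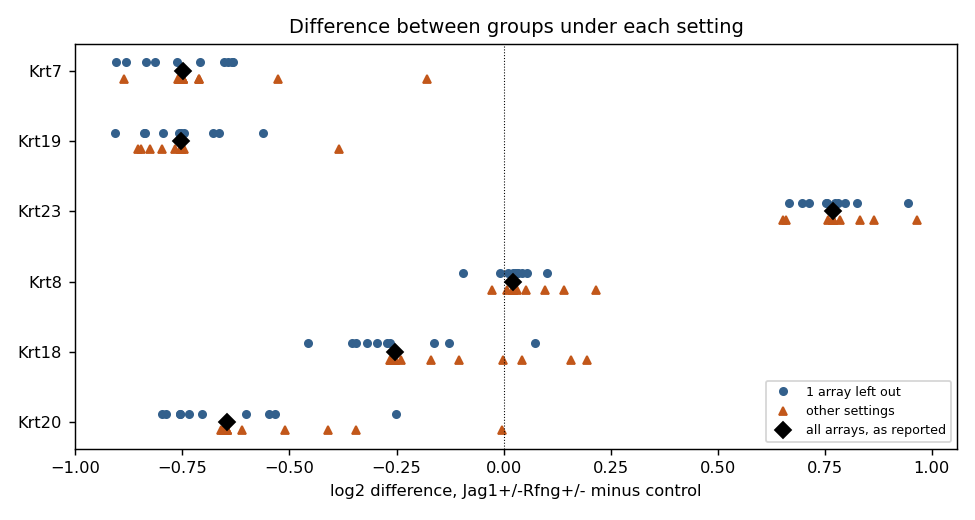
Log2 difference between Jag1+/-Rfng+/- and control (x axis) for each keratin with all arrays (diamonds), with 1 array left out (circles) and under the other settings (triangles). Krt7, Krt19 and Krt20 stay below 0 and Krt23 above 0 in every setting drawn, while Krt8 and Krt18 fall on both sides.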

How the data were processed

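The authors deposited log2 values of 33649 probe sets on each array. Per the submitters' processing notes RMA and Partek 6.6 were involved, in roles that are not stated. RMA usually equalizes array distributions and compresses folds of dim genes. No detection calls were at hand. Symbols came from the platform annotation, with 23521 probe sets having 1 symbol, 1814 several and 8314 none. For genes with several probe sets the one with the highest mean was used, which gave 22180 genes. The table held 0 columns of no sample.

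Groups came from sample titles. The comparison used limma 3.58.1 (R 4.3.3) with lmFit and eBayes, no trend and no filter on dim genes. Two-sided p-values were adjusted by Benjamini-Hochberg over all genes, with a threshold of 0.05, and the fit was tested on simulated data. Jag1 and Rfng had an exact permutation test over all 252 splits. Keratin pairs were permuted within groups (14400 arrangements).

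The 6 keratins and 15 gene lists (223 entries, 207 measured) were chosen with earlier results of these data known. Named genes are the keratins, Jag1, Rfng, the 4 members of lowest unadjusted p in each other pathway list, the 3 genes closest to each keratin and defining markers of lists. Predicted genes, small RNAs and olfactory receptors were skipped. Deviations for replicate numbers of the 2 groups correlated between -0.23 and 0.06. No pairing by number was visible, though so few samples cannot show that there was none.

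The alternatives left out each array in turn, added a replicate block, or used the shared-number arrays with and without Jag1+/-Rfng+/- replicate 5, quantile and median normalization, genes above the median level, mean of or all probe sets, trend and robust eBayes, array weights and 2 covariates. The other Krt18 probe set was added after seeing the data.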

Additional observations from a re-analysis of the deposited data

Results flagged for a closer look

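Krt20 on Jag1+/-Rfng+/- replicate 5 read 4.13, far below the next lowest array of its group at 5.94. The gap was 0.846 of the group's range, above Dixon's 95% critical value of 0.71 for 5 samples. It was the single such case among 12 sets of 5 arrays examined, and chance alone flags about 1 in 20.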

How the results depend on the processing

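The 22 alternatives run on every keratin left 0 of the 6 keratins past the adjusted threshold in limma, as in the full data. Krt7 and Krt19 were lower and Krt23 higher in all of them, with an unadjusted p under 0.05 in 20, 21 and 22 of the 22. With the portal fibroblast covariate neither Krt7 (-0.18 log2) nor Krt19 (-0.38 log2) reached that level. Among the shared-number arrays without Jag1+/-Rfng+/- replicate 5, Krt7 (-0.53 log2) did not reach it either. Leaving out 1 array gave log2 differences of -0.91 to -0.63 for Krt7, -0.91 to -0.56 for Krt19, 0.67 to 0.94 for Krt23, -0.095 to 0.10 for Krt8, -0.46 to 0.074 for Krt18 and -0.80 to -0.25 for Krt20. Krt8 turned to -0.027 with the hepatocyte covariate. Krt18 turned to 0.19 among the shared-number arrays without Jag1+/-Rfng+/- replicate 5, to 0.16 with the portal fibroblast covariate and to 0.044 on its other probe set, and the cause was not tested. The replicate numbers of the titles showed no visible pairing. With these numbers as a replicate block 3 keratins had an unadjusted p under 0.05 and Krt23 differed by 0.77 (limma adjusted p = 0.331). Over all genes limma called 2 with all arrays and 2 with the block. It called 11 with trend and robust eBayes, 11 among genes above the median level, 9 with the hepatocyte covariate, 5 with array weights, 2 to 6 with 1 array left out and 0 among the shared-number arrays without Jag1+/-Rfng+/- replicate 5. Dim genes limit the folds, since the readings of silent genes reach at least 2.91.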
